A study of Saccharomyces cerevisiae with 17 samples.

Results

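RNA levels in a ume6 deletion strain of budding yeast that carried a catalytically dead form of the engineered remodeler Chd1-Ume6 were compared with those in the ume6 deletion alone. Both strains belong to the W303 background of Saccharomyces cerevisiae, lack the repressor gene UME6 and were grown to an optical density at 600 nm of 0.4 to 0.6. The only labelled difference between them is the presence of the fusion, which links the remodeling enzyme Chd1 to the DNA-binding part of Ume6 and carries the substitution D513N. The comparison takes in 3 of the 17 labelled libraries of the series, 1 isolate with the inactive fusion and 2 isolates of the deletion. The deposited values hold them as 3 of 15 columns of FPKM (fragments per kilobase of transcript, scaled to the mapped fragments of the library). The inactive fusion is a column of the first table, and the ume6 deletion has a column in the first table and another in a workbook that was normalized separately. Of 6644 genes listed in both tables, 6443 had a value in both columns of the first table. The series was designed to follow the effects of nucleosome repositioning, and the inactive fusion is its control without catalysis. Other groups used below are the ume6 deletion with the active fusion, with a column in each table, and wild type, a single column deposited for 2 labelled isolates, which is cited as the authors' value. The fit and the ranges across the series also draw on deletions of rrp6, rpd3, isw2 and of isw2 with rpd3, and on the active fusion in wild type and in the rrp6 deletion. The rrp6 deletion and both of these fusion strains have 2 columns each, the other deletions 1. The sources used here do not give the promoter of the fusion, nor whether it was integrated or carried on a plasmid.

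Chd1 is a chromatin remodeler that uses ATP to slide nucleosomes along DNA. Ume6 recognises URS1, an element found in front of early meiotic genes and some metabolic genes. In dividing cells it recruits the histone deacetylase complex of Rpd3 and the remodeler Isw2 to keep them silent, so that deletion of UME6 releases them. Joining Chd1 to the Ume6 DNA-binding domain directs nucleosome sliding to URS1. The D513N change replaces an acidic residue of the ATPase motor that is needed to hydrolyse ATP, so the inactive form serves as a control that has the DNA-binding part but no catalysis.

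The codon altered in the inactive fusion and matches to the URS1 core before some of the genes discussed below are given from the reference sequence. In the reference genome R64, the codon changed by D513N in CHD1 lies on the forward strand of chromosome V within the single coding exon, at the centre of chrV:506904-506954. It is a GAC codon, for aspartate (D), and it is given in capitals.
CHD1: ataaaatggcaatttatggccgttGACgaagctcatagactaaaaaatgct
The URS1 core was searched as GCCGCC on both strands of the 500 bases before each start codon, and 9.57% of 6000 such windows held it. Among the early meiotic genes 24 of 35 held it, and among the metabolic genes of the URS1 list 7 of 12. The core is in capitals and each stretch is written on the coding strand of its gene. The stretches lie at chrX:220923-220952 for IME2, chrVIII:262645-262674 on the reverse strand for SAE3, chrIV:477717-477746 for HED1 and chrXVI:571545-571574 on the reverse strand for REC8. INO1 held 2 cores, at chrX:136174-136203 and chrX:136062-136091 on the reverse strand.
IME2: gcgcgagacttcGGCGGCaaaaagccacag
SAE3: gttctgcctaatGGCGGCtattctatttct
HED1: tttattaagataGCCGCCcaggttaaattc
REC8: gaacttgacttcGGCGGCaaaccaatatat
INO1 distal: agtatgcgcttcGGCGGCtaaatgcggcat
INO1 proximal: cacctctgcgttGGCGGCaatgttaatttg
The first capital stands 455 bases before the start codon in IME2, 109 in SAE3, 68 in HED1, 184 in REC8, and 258 and 146 in INO1. These letters are from the reference strain, and W303 may differ from it. A match is a description of the sequence, not a measured site.

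Whole chromosomes stood apart in several of the columns compared. Each column was centred on its median, set against the wild type column on the log2(FPKM + 1) scale, and summarised over the 5757 fitted genes that RefSeq places on a chromosome. The 456 genes of chromosome XVI had a median difference of 0.85 in the first-table ume6 column, 0.83 in the workbook ume6 column and 0.58 with the inactive fusion. The active fusion in ume6 stood at 0.89 and 0.86. The other 15 chromosomes lay between -0.11 and 0.03 with the inactive fusion. Chromosome III stood at 0.93 in the workbook ume6 column, against 0.03 in that of the first table and -0.05 with the inactive fusion. Chromosome IX stood at 0.93 in both columns of the active fusion in ume6, against 0.03 with the inactive fusion. Among the columns outside the ume6 strains, 1 of the rrp6 columns had chromosome XVI at 0.94. Between the inactive fusion and the ume6 column of its own table, the median of chromosome XVI was -0.29, with 74.6% of its genes below 0, while the other chromosomes lay between -0.10 and 0.06. The shift ran along the whole of chromosome XVI, where 10 consecutive bins of at least 45 genes had medians between -0.38 and -0.18. In the fit below, which takes both ume6 columns, the median against ume6 was -0.36 on chromosome III and -0.29 on chromosome XVI. Copy number was not measured here, and its part in these shifts was not tested. Some results that touch these chromosomes are also given with each chromosome centred or without chromosomes III, IX and XVI. These alternatives were chosen after the data were seen, and other results are given 1 way only.

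**Figure D1:**
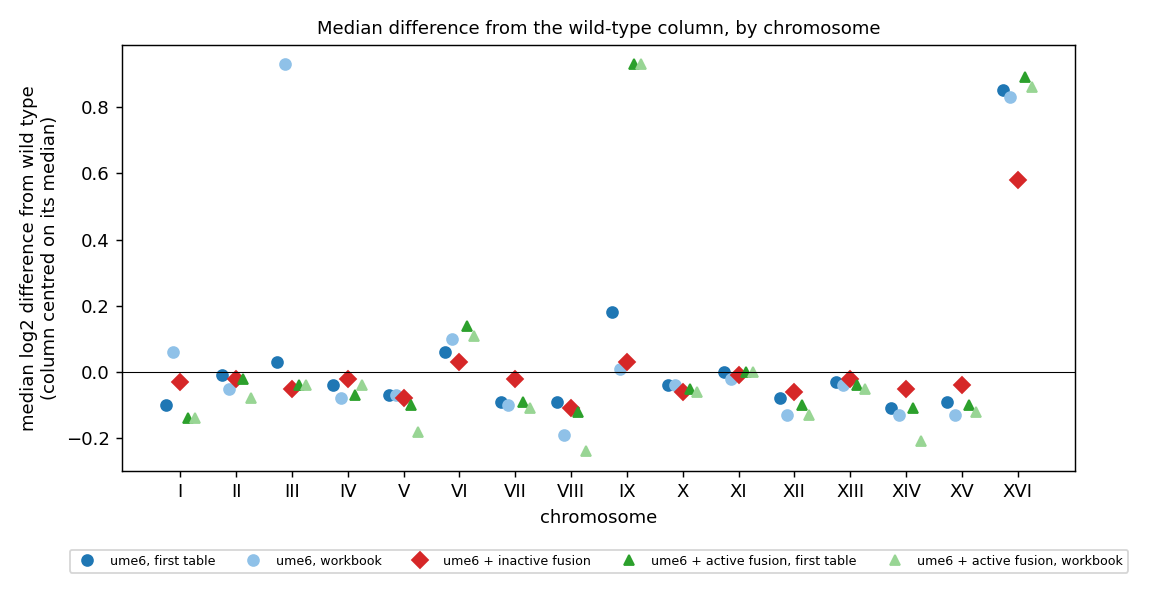
Median difference from the wild type column on the log2(FPKM + 1) scale (y axis) for the fitted genes of each chromosome (x axis), with each column centred on its median; each symbol is 1 column. The inactive fusion (red diamonds) stood at 0.58 on chromosome XVI, below both ume6 columns at 0.85 and 0.83.

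Few genes passed a test between the inactive fusion and the ume6 deletion. The test was limma on log2(FPKM + 1) over all 15 columns, with a Benjamini-Hochberg adjusted p under 0.05 as the threshold, and 6241 genes were fitted. The genes past the threshold were CHD1, URA3 and the small open reading frame YOL085C. These 3 rises are 0.0481% of the genes fitted, and 0 genes (0%) fell. At an unadjusted p under 0.05, 131 genes (2.10%) were higher and 328 (5.26%) lower. Of these lower genes that RefSeq places on a chromosome, 9.8% were on chromosome III and 11.8% on chromosome XVI. Those chromosomes hold 2.71% and 7.92% of the genes fitted. The inactive fusion has 1 column, so the spread in this test comes entirely from the 5 groups with 2 columns. The labels number isolates without saying that they came from separate cultures, and p-values measure only the spread between columns, which may be technical. With 1 column and 4 residual degrees of freedom large differences can miss the threshold, as PHO12 did at 3.7. Genes short of the threshold are therefore not shown to be equal.

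Within the first table, 67 of 6443 genes (1.04%) were at least 2-fold higher with the inactive fusion and 207 (3.21%) at least 2-fold lower, a count with no test. With both columns centred on their medians the split was 100 higher and 166 lower. The 274 genes at least 2-fold apart were 4.25% of those measured. The 2 ume6 columns differed that far from each other in 234 genes, and the 2 columns of the active fusion in ume6 in 243. The other replicate pairs differed in 424 to 655 genes. Of these pairs, those of ume6 and of the active fusion in ume6 and in wild type cross the separately normalized tables. Within the first table, the active fusion differed that far from the same ume6 column in 169 genes. Among the 170 genes at least 2-fold lower that RefSeq places on a chromosome, 26 (15.3%) were on chromosome XVI, which holds 7.88% of the genes measured. Of the 5876 genes measured that RefSeq places on a chromosome, 43 were at least 2-fold higher. Without chromosomes III, IX and XVI, 5039 of these remained, with 42 at least 2-fold higher and 125 at least 2-fold lower. The ume6 column of the workbook, normalized separately, gave 721 genes at least 2-fold apart.

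**Figure D2:**
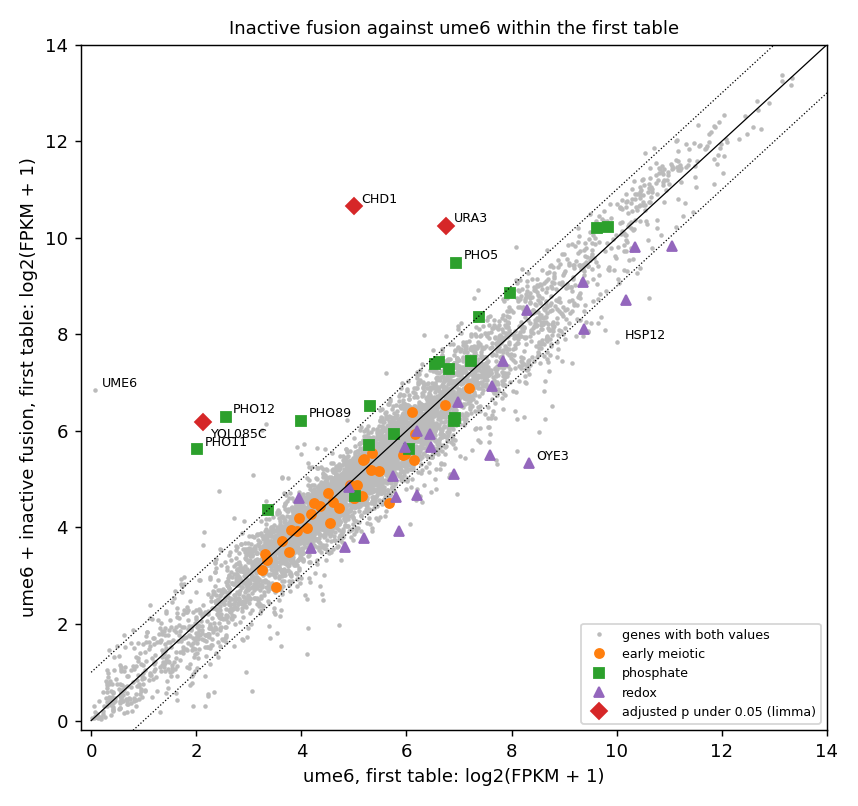
Each point is a gene, with log2(FPKM + 1) in the ume6 deletion on the x axis and in ume6 with the inactive fusion on the y axis, both from the first table; the solid line marks equality and the dotted lines 2-fold differences. CHD1, URA3 and YOL085C (red diamonds) passed the limma threshold, the early meiotic genes (orange) other than REC8 lie inside the dotted lines, and PHO5, PHO11 and PHO12 lie above it.

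The genes of the construct marked the strain that carried it. CHD1, the remodeler gene itself, reached 1608 FPKM with the inactive fusion, against 31.0 and 22.4 FPKM in the ume6 columns. It rose by 5.84 on the log2 scale (± 0.29 SE, limma adjusted p = 0.000169), which was 50.3-fold within the first table. Across the series CHD1 was between 22.4 and 39.1 FPKM in the 8 columns without a fusion and between 276 and 1075 in the 6 with the active fusion, so the inactive column was the highest of all. UME6 read 113 FPKM beside the inactive fusion and 0.0536 FPKM in the first-table ume6 column. It has no value in the workbook column of ume6 and was left out of the fit for that reason. Its near absence from the deletion is what the label says, and the fusion carries the UME6 part that binds DNA. The first-table difference of UME6 was 6.76 on the log2(FPKM + 1) scale, and with missing values allowed in the fit UME6 passed as well.

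URA3, a pyrimidine synthesis gene that is widely used as a selectable marker in yeast, was at 1213 FPKM with the inactive fusion against 107 and 114 FPKM in ume6. Its rise was 3.56 (± 0.29 SE, limma adjusted p = 0.00354), an 11.2-fold difference within the first table. All 6 columns with the active fusion held URA3 between 216 and 761 FPKM, and the 8 columns without a fusion between 58.5 and 114 FPKM, so the groups with and without a fusion did not overlap. Its neighbours on chromosome V, GEA2 at 52.9 FPKM and TIM9 at 113 FPKM, lie 366 and 240 bases away. GEA2 was above and TIM9 inside their ranges in columns without a fusion, 21.5 to 45.7 FPKM and 106 to 186 FPKM. The other genes of pyrimidine synthesis and salvage held 0 calls. Of 14 such genes fitted, 6 had estimates above 0 and 8 below, with a median of -0.08, and URA7, a CTP synthase gene, was the highest at 0.90 (± 0.35 SE, limma adjusted p = 0.645). Without the ume6 column of the first table, URA3 missed the threshold (3.69, adjusted p = 0.111).

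YOL085C stood at 71.8 FPKM against 3.37 and 6.59 FPKM in ume6, a rise of 3.98 (± 0.42 SE, limma adjusted p = 0.0203). The 8 columns without a fusion held it at 1.85 to 8.27 FPKM and the 6 with the active fusion at 17.02 to 58.5 FPKM. The reading frame spans chrXV:161673-162014 on the reverse strand of R64, 1078 bases upstream of ADH1, the main alcohol dehydrogenase gene of fermentation, and 341 bases from PHM7. ADH1 itself was at 7099 FPKM with the inactive fusion, inside its range of 6538 to 12020 FPKM in columns without a fusion. YOL085W-A, named for the same locus on the opposite strand, was at 63.5 FPKM against 8.54 and 12.8 FPKM in ume6 (3.19 ± 0.57 SE, limma adjusted p = 0.342). No source used here says whether counting used strand, so the reads of this pair cannot be told apart. YOL085C missed the threshold without a table term (adjusted p = 0.101), without either ume6 column (adjusted p = 0.256 and 0.0851) and without either column of the active fusion in wild type (0.0731 and 0.0766).

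**Figure D3:**
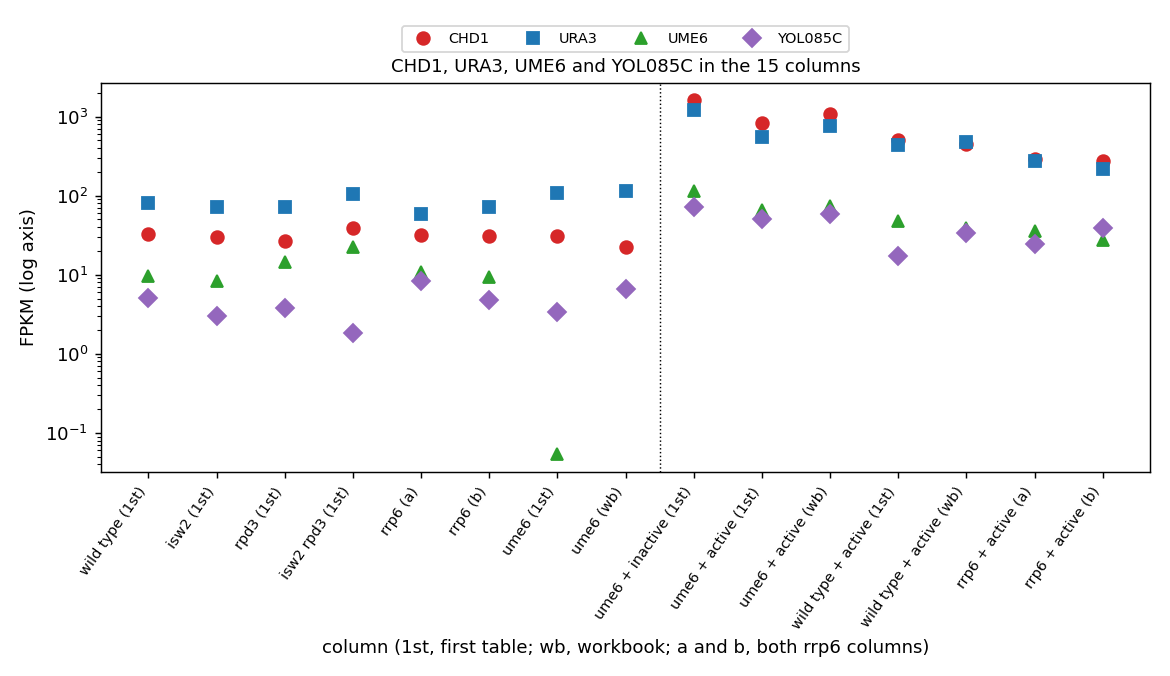
FPKM on a log axis (y) of CHD1, URA3, UME6 and YOL085C in each of the 15 columns (x); columns to the right of the dotted line carry a fusion. The inactive fusion has the highest value of each of the 4 genes, with CHD1 at 1608 FPKM, and UME6 is at 0.0536 FPKM in the first-table ume6 column.

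Early meiotic genes had a median level with the inactive fusion nearer to ume6 than to wild type. Of 35 genes of meiotic entry, recombination and chromosome pairing, 0 passed the threshold in either direction, against 0.0481% of all genes, 15 had estimates above 0 and 20 below. Their median estimate was -0.07, against -0.03 over all genes fitted. With the inactive fusion 10 of them lay above both ume6 columns, 14 below both and 11 between them. Without the members on chromosomes III, IX and XVI 15 of the remaining 30 were above 0 and 15 below. The median turned to 0.01 with centred columns and to 0.06 without the first-table ume6 column. Their median level was 4.86 FPKM in the wild type column, 29.2 and 27.2 FPKM in the ume6 columns and 23.3 FPKM with the inactive fusion, against 20.0 and 19.6 FPKM with the active fusion.

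IME2, the kinase that drives entry into meiosis, was at 60.5 FPKM with the inactive fusion, at 70.7 and 76.7 FPKM in ume6, at 35.3 and 30.8 FPKM with the active fusion and at 5.77 FPKM in the wild type column. The estimate against ume6 was -0.26 (± 0.26 SE, limma adjusted p = 0.872). SAE3, a factor that loads the meiotic recombinase, was at 91.8 FPKM, against 105.5 and 103.4 FPKM in ume6, 49.5 and 62.8 FPKM with the active fusion and 0.498 FPKM in wild type. HED1, another gene of meiotic recombination, was at 45.1 FPKM, against 61.5 and 66.4 FPKM in ume6, 31.0 and 30.8 FPKM with the active fusion and 0.355 FPKM in wild type. In all 3 of these genes the inactive column lay below both ume6 columns and above both columns of the active fusion, and the differences from either did not pass. RIM4, an RNA-binding regulator of meiotic translation, had the same order, at 116.7 FPKM against 145.1 and 149.2 FPKM in ume6 and 96.0 and 69.7 FPKM with the active fusion.

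Other early meiotic genes had other orders, and those named here were chosen after their values were seen. ZIP1, the central element of the synaptonemal complex, was at 45.4 FPKM with the inactive fusion, above 39.9 and 28.6 FPKM in ume6, and at 35.0 and 31.2 FPKM with the active fusion. HOP1, an axis protein encoded on chromosome IX, was at 44.0 FPKM, beside 60.3 and 43.6 FPKM in ume6, while the active fusion had 86.6 and 98.5 FPKM. DMC1, the meiotic recombinase, was at 25.1 FPKM, between 21.7 and 50.8 FPKM in ume6, with 19.7 and 35.4 FPKM under the active fusion. MND1, a cofactor of DMC1, was at 40.9 FPKM against 35.1 and 34.8 FPKM in ume6 and 27.4 and 47.7 FPKM with the active fusion. It had the highest estimate of the list at 0.37 (± 0.43 SE, limma adjusted p = 0.889).

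REC8, the meiotic cohesin subunit, had the lowest estimate and was the only early meiotic gene at least 2-fold apart in the first table. It was at 21.6 FPKM with the inactive fusion against 49.97 and 45.0 FPKM in ume6, 35.4 and 30.5 FPKM with the active fusion and 1.77 FPKM in wild type. The estimate was -1.12 (± 0.37 SE, limma adjusted p = 0.607) and -0.78 with each chromosome centred, and REC8 lies on chromosome XVI. NDJ1, a telomere protein of meiotic pairing, followed at 41.3 FPKM against 69.9 and 74.8 FPKM (-0.88 ± 0.65 SE, limma adjusted p = 0.813). CSM4, also on chromosome XVI and also a factor of telomere-led pairing, was at 5.77 FPKM against 10.4 and 11.2 FPKM (-0.81 ± 0.44 SE, limma adjusted p = 0.738).

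Metabolic genes of the URS1 list had lower values with the inactive fusion, none of them past the threshold. Of 12 genes, 11 had estimates below 0, with a median of -0.51, or -0.27 with each chromosome centred and -0.33 without a table term. Without chromosomes III, IX and XVI the median was -0.57, with 8 of 9 below 0. Between the 2 columns of a group, the median of this list had a pooled SD of 0.25. INO1, the inositol-phosphate synthase gene whose upstream region holds 2 URS1 cores, was at 2286 FPKM, against 2390 and 3476 FPKM in ume6 and 14.9 FPKM in wild type (-0.19 ± 0.60 SE, limma adjusted p = 0.964). With the active fusion it was at 947.6 and 826.6 FPKM. CAR1, the arginase gene on chromosome XVI, was at 503.8 FPKM, against 562.2 and 711.4 FPKM in ume6 and 287.9 and 189.8 FPKM with the active fusion. CAR2, the next step of arginine breakdown, had the lowest estimate of the list, at 80.1 FPKM against 141.3 and 129.7 FPKM (-1.03 ± 0.67 SE, limma adjusted p = 0.783). ACS1, the acetyl-CoA synthetase gene, was at 155.6 FPKM against 249.5 and 592.0 FPKM, and its ume6 columns differed more from each other than the first of them did from the inactive fusion. PHR1, the photolyase gene, was the only member with an estimate above 0 in this fit, at 22.1 FPKM against 21.1 and 21.1 FPKM.

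**Figure D4:**
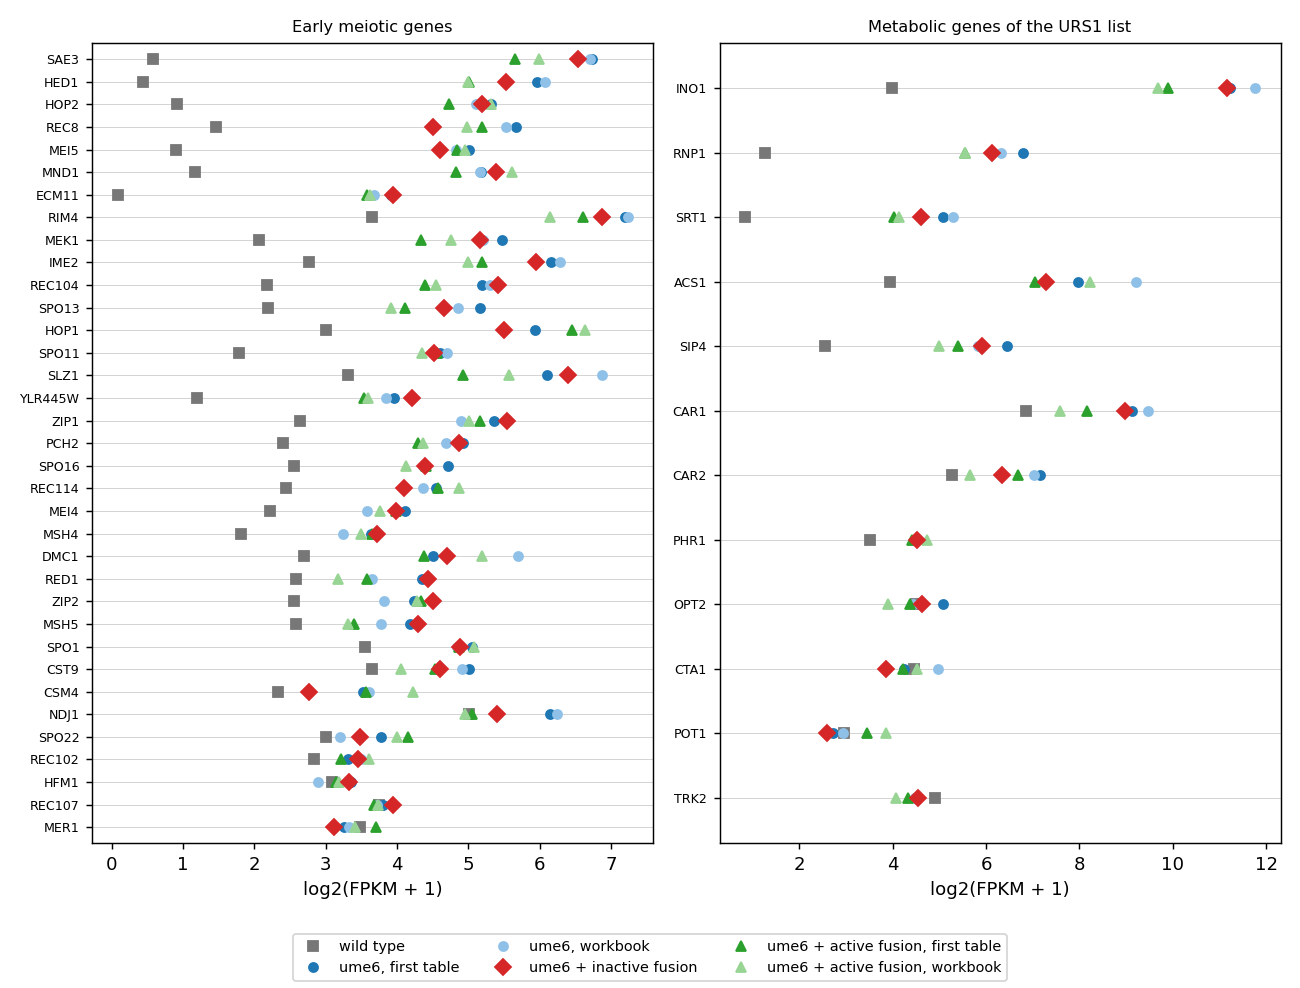
Level as log2(FPKM + 1) (x axis) of each early meiotic gene (left) and each metabolic gene of the URS1 list (right) in 6 columns: wild type, both ume6 columns, the inactive fusion and both columns of the active fusion in ume6; genes are ordered by the difference between the first-table ume6 column and wild type. Red diamonds (inactive fusion) lie near the blue circles (ume6) for most early meiotic genes, with REC8 at 21.6 FPKM against 49.97 and 45.0 FPKM.

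The machinery around Ume6 and the genes with the authors' motif entry had medians near that of all genes. With 0.0481% of all genes called, the absence of calls in these lists is the background rate. The 15 genes of Ume6 partners and corepressors had a median of 0.02 and 0 calls. RXT3, a subunit of the Rpd3 large complex, was the highest at 0.36, and ASH1, a daughter-cell repressor, the lowest at -0.65. The 14 regulators of meiotic entry had a median of -0.17 and 0 calls, with SOK2 highest at 0.25 and RME1, the repressor of IME1, lowest at -0.56. Of 15 chromatin remodeler genes, CHD1 among them, only CHD1 passed, and the median of that list was 0.13. The 28 middle sporulation genes, which act after the early ones, had a median of -0.09 and 0 calls. The first table marks 237 genes as holding a motif that it does not name, and 66.7% of the 228 whose upstream windows could be read held the URS1 core. Of 227 fitted, 0 passed, 91 were above 0 and 136 below. Their median was -0.13, or -0.02 with each chromosome centred and -0.07 without chromosomes III, IX and XVI. At a limma unadjusted p under 0.05, 22 were lower and 1 higher, against 5.26% and 2.10% of all genes. Of 235 with both first-table values, 13 were at least 2-fold lower and 1 higher, against 3.21% and 1.04% of all genes.

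Besides the genes past the threshold, those furthest above both ume6 columns by the naming rule were the secreted acid phosphatases PHO12, PHO11 and PHO5. Phosphate scarcity activates the transcription factor Pho4, which turns on secreted acid phosphatases, phosphate transporters and the vacuolar polyphosphate synthase. Of 20 such genes, 16 had estimates above 0 with a median of 0.65, or 0.87 with each chromosome centred. At least 2-fold higher in the first table were 5 of them, against 1.04% of all genes, and 0 were at least 2-fold lower. None of the 20 passed the limma threshold, which 0.0481% of all genes passed. At an unadjusted p under 0.05, 6 were higher, against 2.10% of all genes. Above both ume6 columns lay 15 of the 20, and 2476 of the 6413 genes with all 3 values. Between the 2 columns of a group, the median of this list had a pooled SD of 0.34.

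PHO5, the main secreted acid phosphatase, was at 714 FPKM with the inactive fusion, against 122 and 105 FPKM in ume6 and 356 FPKM in the wild type column (2.68 ± 0.60 SE, limma adjusted p = 0.391). PHO12 was at 77.6 FPKM against 4.89 and 4.24 FPKM in ume6 and 74.1 FPKM in wild type (3.70 ± 0.85 SE, limma adjusted p = 0.412). PHO11 was at 48.1 FPKM against 3.07 and 3.47 FPKM in ume6 and 37.7 FPKM in wild type (3.38 ± 0.84 SE, limma adjusted p = 0.415). All 3 were far above both ume6 columns, and PHO11 and PHO12 were near the wild type value. PHO11 and PHO12 are near-identical copies, as PHO3 and PHO5 are close relatives, so how the authors' counting divided shared reads is uncertain. The rrp6 columns, which lack an RNA-degrading nuclease, differed widely in these genes, with PHO12 at 15.1 and 1.80 FPKM and PHO11 at 11.2 and 1.40 FPKM. Leaving out either rrp6 column brought PHO12 past the threshold (adjusted p = 0.00780 and 0.00727), and leaving out the second brought PHO11 past it (adjusted p = 0.0498).

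Both forms of the Pho4 site stand upstream of all 3 phosphatase genes, printed because these genes led the higher genes that missed the threshold. The sites were searched as CACGTG and CACGTT on both strands of the same windows, where 6.23% of them held the first form and 961 of 6000 the second. Of the 20 phosphate genes 15 held the first and 12 the second. The stretches lie at chrII:431187-431216 and chrII:431296-431325 on the reverse strand for PHO5, chrI:225165-225194 for PHO11 and chrVIII:551804-551833 for PHO12. The capitals mark the 6 letters searched.
PHO5 proximal: ccttggcactcaCACGTGggactagcacag
PHO5 distal: atattaaattagCACGTTttcgcatagaac
PHO11: tcttggcgttcaCACGTGggtttaaaaagg
PHO12: tcttggcgttcaCACGTGggtttaaaaagg
The first capital stands 253 and 362 bases before the PHO5 start codon and 283 bases before those of PHO11 and PHO12, whose stretches are the same letter for letter.

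Among transporters, the sodium-coupled PHO89 was at 73.2 FPKM against 14.97 and 25.2 FPKM in ume6 and 410 FPKM in wild type (1.98 ± 0.96 SE, limma adjusted p = 0.700). PHO84, the main high-affinity transporter, was at 1202 FPKM against 917 and 461 FPKM, and its ume6 columns were further apart than the first of them was from the inactive fusion. SPL2, which holds back low-affinity uptake, was at 90.7 FPKM against 38.7 and 29.4 FPKM (1.38 ± 1.15 SE, limma adjusted p = 0.844). The 4 listed subunit genes of the vacuolar polyphosphate synthase were all above both ume6 columns, with VTC3 at 465.6 FPKM against 248.6 and 137.7 FPKM and VTC4 at 325.8 FPKM against 164.7 and 126.7 FPKM. GDE1, a glycerophosphodiesterase gene on chromosome XVI, had the lowest estimate of the list at -0.81 (± 0.37 SE, limma adjusted p = 0.689).

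The regulators and constitutive transporters of phosphate held values on both sides of 0. PHO4 itself was at 20.8 FPKM against 20.5 and 13.8 FPKM in ume6, and PHO80, the cyclin that restrains it, at 15.8 FPKM against 13.5 and 12.9 FPKM. PHO81, the inhibitor of the Pho80 and Pho85 kinase and itself a target of the pathway, was at 51.6 FPKM against 37.9 and 17.5 FPKM (0.55 ± 0.34 SE, limma adjusted p = 0.773). The 7 genes of this list, which PHO81 is not part of, had 3 estimates above 0 and 4 below, with 0 calls and a median of -0.11, which was 0.23 without chromosomes III, IX and XVI, -0.37 without the first-table ume6 column and 0.02 without the workbook one. The lowest of them, PHO87, a low-affinity transporter on chromosome III, was at 19.9 FPKM against 38.2 and 55.6 FPKM (-1.24 ± 0.38 SE, limma adjusted p = 0.590).

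Redox and detoxification genes were mostly lower with the inactive fusion. Many of them are targets of the oxidant-responsive factor Yap1. Of 25 such genes, 21 had estimates below 0 with a median of -0.43, and the median was the same with each chromosome centred, but -0.08 without the first-table ume6 column and -0.71 without the workbook one. At least 2-fold lower in the first table were 11 of them, against 3.21% of all genes, and 0 were at least 2-fold higher. The limma threshold was passed by 0 of the 25, and 0 genes of all fell. At an unadjusted p under 0.05, 8 were lower, against 5.26% of all genes. Below both ume6 columns lay 18 of them, and 2362 of the 6413 genes with all 3 values. Between the 2 columns of a group, the median of this list had a pooled SD of 0.26.

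OYE3, an NADPH oxidoreductase gene on chromosome XVI, was at 39.2 FPKM with the inactive fusion against 319 and 207 FPKM in ume6, 1402 and 2611 FPKM with the active fusion and 8.73 FPKM in wild type (-2.30 ± 0.84 SE, limma adjusted p = 0.618). With each chromosome centred its estimate was -1.96. GRE2, a methylglyoxal reductase gene, was at 44.0 FPKM against 191.7 and 66.1 FPKM in ume6 and 75.3 FPKM in wild type. FLR1, a multidrug exporter, was at 14.1 FPKM against 57.0 and 43.9 FPKM in ume6 and 22.0 FPKM in wild type (-1.68 ± 0.34 SE, limma adjusted p = 0.360). AHP1, a peroxiredoxin, was at 418.9 FPKM against 1151 and 716.9 FPKM in ume6 and 679.9 FPKM in wild type. The inactive fusion was below both ume6 columns in all 4 of these genes, and below the wild type column in GRE2, FLR1 and AHP1. YAP1 was at 62.9 FPKM, between its ume6 values of 72.5 and 50.6 FPKM. CTT1, the cytosolic catalase, had the highest estimate of the list at 1.20 (± 0.84 SE, limma adjusted p = 0.799).

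**Figure D5:**
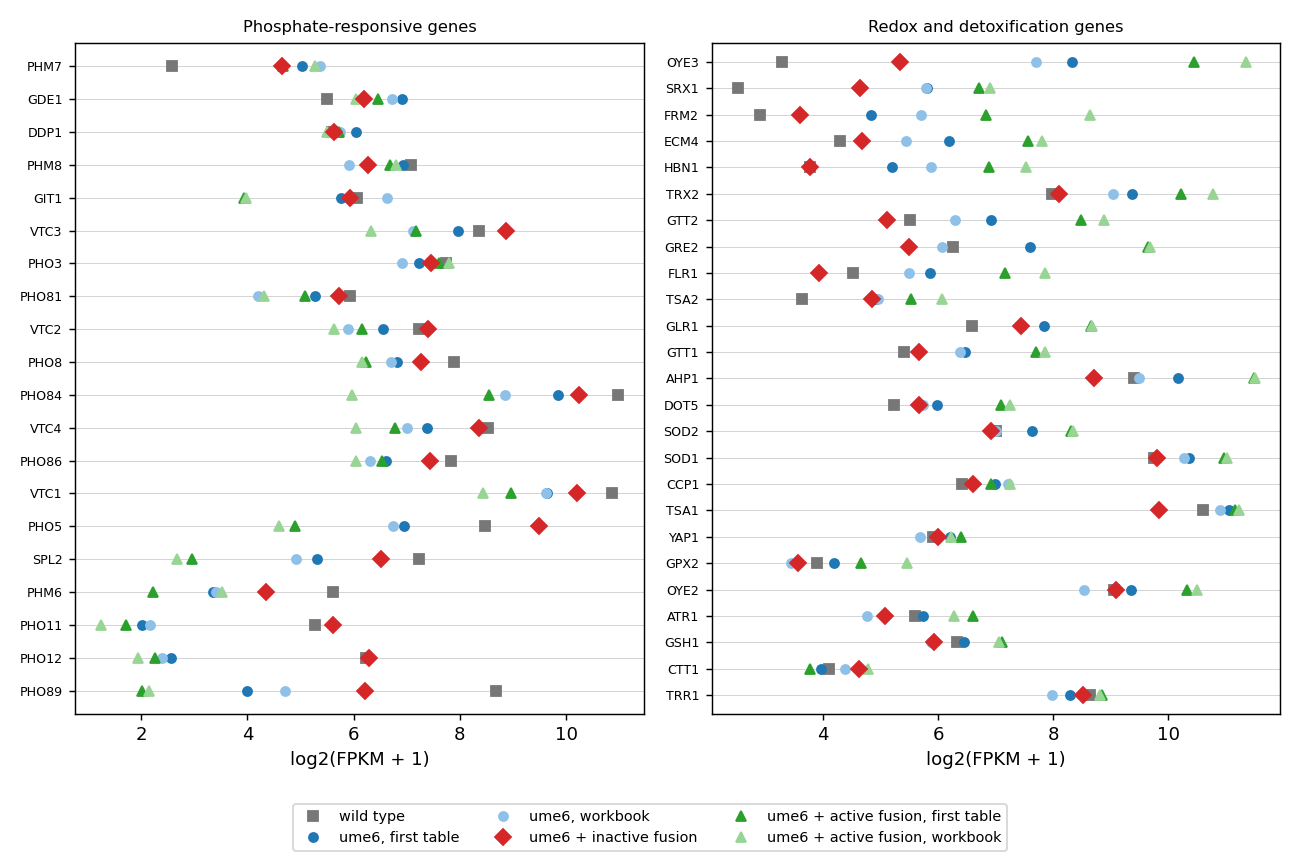
Level as log2(FPKM + 1) (x axis) of each phosphate-responsive gene (left) and each redox and detoxification gene (right) in the same 6 columns. The inactive fusion (red diamonds) lies above both ume6 columns for 15 of the 20 phosphate genes and below both for 18 of the 25 redox genes, while the active fusion (green triangles) stands on the far side of ume6 for PHO5, at 28.8 and 23.2 FPKM, and for OYE3, at 1402 and 2611 FPKM.

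Outside these lists, the genes that differed most from both ume6 columns included products of stress and of the cell wall. HSP12, a small membrane-stabilising stress protein, was at 227 FPKM with the inactive fusion against 1028 and 954 FPKM in ume6, 1234 and 1227 FPKM with the active fusion and 49.2 FPKM in wild type (-2.03 ± 0.74 SE, limma adjusted p = 0.618). PST1, a cell wall protein, was at 432 FPKM against 1564 and 1555 FPKM in ume6 and 394 FPKM in wild type (-1.79 ± 0.45 SE, limma adjusted p = 0.426). GPG1, a G protein subunit, was at 15.7 FPKM against 66.3 and 63.8 FPKM in ume6 and 30.2 FPKM in wild type (-1.71 ± 0.37 SE, limma adjusted p = 0.375). For HSP12, PST1 and GPG1 the ume6 columns were within 0.11 of each other on the log2 scale, while the nearest difference of the inactive fusion from them was -2.07, -1.84 and -1.96. YKL071W, a reductase-like gene, was at 38.5 FPKM against 209 and 133 FPKM (-2.10 ± 0.57 SE, limma adjusted p = 0.478). The 28 general stress genes had a median of -0.25, with 18 below 0 and 0 calls. It was 0.33 without the first-table ume6 column and -0.08 with each chromosome centred. Between the 2 columns of a group, the median of these 28 genes had a pooled SD of 0.64. GSY1, a glycogen synthase, was their highest at 1.42 (± 1.21 SE, limma adjusted p = 0.847).

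The remaining lower genes by the naming rule were mostly reading frames without a known product. YDR278C was at 2.93 FPKM against 25.2 and 101 FPKM in ume6, YNL285W at 1.59 against 16.2 and 11.5 FPKM, YOL013W-A at 24.9 against 124 and 115 FPKM, and YPR108W-A at 4.63 against 20.3 and 30.3 FPKM. YCR099C, on chromosome III, was at 25.6 FPKM against 87.7 and 127.6 FPKM and overlaps the reading frame YCR100C. Its estimate was -2.19 (± 0.46 SE, limma adjusted p = 0.360) and -1.58 with each chromosome centred. Among the higher genes of the rule, YLR198C was at 897 FPKM against 271 and 225 FPKM in ume6 and 530 FPKM in wild type, YAL037C-A at 26.1 against 4.37 and 3.94 FPKM, and YGR035C at 44.9 against 15 and 11.4 FPKM. Reads of such frames may come from genes they overlap. The limma adjusted p of these 8 genes ran from 0.264 for YPR108W-A to 0.761 for YGR035C.

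Growth-related lists held small differences that mostly lay on 1 side of 0, with 0 members past the threshold in any of them. Of all 6241 genes fitted, 2913 had estimates above 0. Ribosomal protein genes had a median estimate of 0.37, with 129 of 137 above 0 and 22 higher at an unadjusted p under 0.05, against 2.10% of all genes. After quantile normalization their median was 0.24, with 104 above 0. Ribosome assembly genes had a median of 0.48, with 75 of 83 above 0 and 8 higher at a limma unadjusted p under 0.05. Their highest member, NOP7, a factor of the large ribosomal subunit, was at 288 FPKM against 125 and 112 FPKM in ume6 and 230 FPKM in wild type (1.20 ± 0.41 SE, limma adjusted p = 0.607). Amino acid synthesis genes had a median of 0.36, with 43 of 47 above 0 and 7 higher at a limma unadjusted p under 0.05. They were led by BAT1, the mitochondrial branched-chain aminotransferase, at 657.5 FPKM against 294.5 and 355.6 FPKM in ume6 (1.16 ± 0.26 SE, limma adjusted p = 0.412). Glucose-repressed and respiratory genes stood on the other side, with a median of -0.62. Of these, 51 of 53 were below both ume6 columns, as were 2362 of the 6413 genes with all 3 values. At a limma unadjusted p under 0.05, 12 of the 53 were lower, against 5.26% of all genes. Their extremes were ADH2, the ethanol-consuming alcohol dehydrogenase, at 6.44 FPKM against 11.3 and 62.6 FPKM, and SUC2, the invertase, at 58.8 FPKM against 47.2 and 79.1 FPKM. Without chromosomes III, IX and XVI the medians of these 4 lists were 0.40, 0.56, 0.41 and -0.63. The last was -0.37 without the first-table ume6 column. Between the 2 columns of a group, the medians of these 4 lists had a pooled SD of 0.15, 0.45, 0.14 and 0.21. For ribosome assembly this spread was about the size of the median itself. In bulk RNA a shift in every cell and a shift in part of the cells cannot be told apart, and the cultures were taken over a range of densities.

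Markers of mating type were those of a cells in all 3 columns, as in wild type. STE2, the receptor of a cells, was at 292 FPKM with the inactive fusion against 188 and 148 FPKM in ume6, while STE3, the receptor of alpha cells, was at 2.44 FPKM against 3.73 and 3.11 FPKM. The 7 a-specific genes had a median estimate of 0.57 and the 5 alpha-specific genes of -0.31, with 0 calls in either list. Without the workbook ume6 column the a-specific median was 0.32, and without the first-table one it was 0.84 and the alpha-specific median -0.16. Histone, iron uptake, hexose transport, sulfur, permease, nitrogen, pheromone response and inositol lists had medians between -0.22 and 0.03 and 0 calls, and the nitrogen and pheromone medians changed sign with each chromosome centred, to 0.07 and 0.14.

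The difference between the active and inactive fusions was tested directly in the same fit. Of 6241 genes, 20 (0.320%) were higher with the active fusion and 2 (0.0320%) lower, with 2 columns against 1. Among the 20 higher genes 8 lie on chromosome IX, where both active columns stood 0.93 above wild type, namely ARC15, RSM25, YIR024C, SGN1, FMC1, YKE4, SDL1 and YIL014C-A. The median of chromosome XVI in this contrast was 0.33. With each chromosome centred, over the 5757 genes with a chromosome, 8 genes passed, and all 8 were among the original 22. They were HBN1, FLR1, AAD4, AAD6, GRE2, YKL071W and AHP1, higher with the active fusion, and PHO5, lower. Of the original 22, YOL150C (4.34) and AAD16 (4.50) have no RefSeq chromosome and were not tested in that setting. The authors' motif entry is on 0 of the 8 and on 237 of the 6644 genes in both tables, so this count says nothing about the 8.

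The 7 higher genes called with each chromosome centred include redox and detoxification genes of the list above. AAD4, an aryl-alcohol dehydrogenase gene, was at 5.17 FPKM with the inactive fusion against 80.0 and 129 FPKM with the active one (4.07 ± 0.37 SE, limma adjusted p = 0.00702), beside 20.1 and 13.4 FPKM in ume6. AAD6, a relative that may share reads with it, was at 47.2 FPKM against 1007 and 1292 FPKM (4.53 ± 0.57 SE, limma adjusted p = 0.0219), beside 275 and 138 FPKM in ume6. HBN1, a nitroreductase-like gene, was at 12.7 FPKM against 117.4 and 183.8 FPKM (3.08 ± 0.28 SE, limma adjusted p = 0.00702), beside 35.4 and 57.4 FPKM in ume6. YKL071W had the largest estimate of the 22, at 38.5 FPKM against 738 and 1800 FPKM (4.88 ± 0.57 SE, limma adjusted p = 0.0183). In these genes both ume6 columns lay between the inactive fusion and the active one.

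BAT1 was the other gene lower with the active fusion, at 177.6 and 218.7 FPKM against 657.5 FPKM (-1.87 ± 0.26 SE, limma adjusted p = 0.0310), and it missed the threshold with each chromosome centred (adjusted p = 0.0632). Early meiotic genes held 0 calls between the fusions, with a median of -0.26 against 0.09 over all genes. SLZ1, a meiotic gene with a leucine zipper, had the lowest estimate among them, at 29.3 and 46.3 FPKM with the active fusion against 83.3 FPKM with the inactive one (-1.47 ± 0.37 SE, limma adjusted p = 0.131). INO1 was lower with the active fusion by an estimate of -1.51 (± 0.60 SE, limma adjusted p = 0.304). CHD1 RNA was not equal in the pair, at 836 and 1075 FPKM with the active fusion against 1608 FPKM (-0.72 ± 0.29 SE, limma adjusted p = 0.322), and the part of this in the other differences was not tested. The count of 22 ranged from 4 to 35 as single columns were left out, and it was 4 or 5 with either column of the active fusion in ume6 removed.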

How the data were processed

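Total RNA of W303 yeast was depleted of ribosomal RNA and made into strand-specific dUTP libraries, per the labels' protocols. The authors deposited log2 FPKM columns in the first table and in 6 workbook sheets, while the ume6 sheet, headed log2, was read as log10 because of its spread. Cufflinks 2.2.1, Cuffdiff, TopHat2, SAMtools and CASAVA are listed, without roles, per the submitters' processing notes. The sources used here do not give the genome build, the annotation or the use of strand. Depth is unknown. The columns summed to between 889031 and 1132504 FPKM over the genes of both tables.

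Values were returned to FPKM, NA was treated as missing, and log2(FPKM + 1) was compared, which understates the change of low genes. The fit kept 6241 of the 6644 shared genes, those without a missing value in the 15 columns and with at least 1 FPKM in 2 or more. It was made once with limma 3.58.1 (R 4.3.3), using 10 groups, a term for the table, a trend on abundance and 4 residual degrees of freedom, and the script was tested on simulated data. Fold counts in the first table have no test. Chromosomes, neighbours and sequences came from RefSeq R64 through systematic names, and 652 names had no match.

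The members and gene lists were chosen with earlier results of these data known. Named genes were those past the threshold, the 10 furthest above and 10 furthest below both ume6 columns by the smaller difference, where that exceeded the gap between those columns and 1 of the 3 values reached 10 FPKM, and the members of the engineered, early meiotic, URS1, phosphate and pyrimidine lists. Other lists were described by counts, medians and extremes, and further members of them were named after their values were seen. Alternatives changed the pseudocount, filter, scaling, table term, handling of missing values, columns and chromosomes.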

Additional observations from a re-analysis of the deposited data

How the results depend on the processing

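The 3 genes called between the inactive fusion and ume6 were also called at pseudocounts of 5 and 0.1, without a filter, after quantile normalization or median centring, with each chromosome centred and without chromosomes III, IX and XVI. Without a table term 2 of them were called, and with missing values allowed 4 genes, UME6 being the addition. Leaving out single columns gave 1 to 5 calls. Without the ume6 column of the first table CHD1 alone passed, and without the second rrp6 column PHO11 and PHO12 were added. The 274 genes at least 2-fold apart in the first table became 184 and 375 at pseudocounts of 5 and 0.1, 266 with either scaling, 197 with each chromosome centred, 167 without chromosomes III, IX and XVI, and 721 against the ume6 column of the workbook. The 22 genes between the fusions became 14 after quantile normalization, 45 without a table term, 33 at a pseudocount of 5, 8 with each chromosome centred, 9 without the 3 chromosomes, and 4 to 35 as single columns were left out. Median centring moved the median of all genes in that comparison from 0.09 to -0.07. Of the genes past the threshold or furthest from both ume6 columns by the naming rule, 0 changed direction against ume6 in the alternatives run. The rule required 1 sign against both ume6 columns, so the choice of these genes largely fixed that count. Members of the lists did change direction, and without the first-table ume6 column the early meiotic genes above 0 went from 15 to 21. The causes were not tested, except that leaving out chromosomes leaves fewer genes. Both chromosome alternatives also drop genes without a RefSeq chromosome. The counts of 197 and 167 cover 5876 and 5039 genes, and the fits cover 5757 and 4938. YOL150C and AAD16, called between the fusions in the main fit, enter neither of these fits. No paired analysis was possible because the inactive fusion has only 1 isolate. The headers of the ume6 columns carry no isolate number, while the ume6 sheet of the workbook is named for the second isolate. Depth is unknown, so no value has a counting interval.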

Other observations

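Genes higher or lower in ume6 can be chosen on columns outside the first-table difference, from the ume6 column of the workbook against wild type. That ume6 column stood at 0.93 on chromosome III and 0.83 on chromosome XVI. The choice therefore also takes in genes that differ along with their chromosome. Among 46 genes with the authors' motif entry and at least 4-fold higher in that ume6 column, the median difference of the inactive fusion from the first-table ume6 column was -0.51, with 40 lower and 5 at least 2-fold lower. The active fusion had -0.62 against the same ume6 column. Among 117 genes without the entry, the inactive fusion had -0.77, with 101 lower and 41 at least 2-fold lower, and the active fusion -0.22. Of all 6443 genes with both first-table values, 3526 were lower and 3.21% at least 2-fold lower. Without chromosomes III, IX and XVI the medians of the inactive fusion were -0.46 over 33 genes with the entry and -0.66 over 55 without it, of which 14 were at least 2-fold lower. This choice was made after the data were seen, the groups have no test, and both fusions are set against the same column.

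Another 560 genes without the entry were at least 2-fold lower in the workbook ume6 column than in wild type. Of these, 463 were higher with the inactive fusion than in the first-table ume6 column, as were 2917 of all 6443 genes. The median of the 560 was 0.37, beside 0.02 for the active fusion. These genes were not also counted without chromosomes III, IX and XVI.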
